A study of Homo sapiens with 14 samples.

Results

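NT2 cells exposed to bone morphogenetic protein 2 (BMP2) for 10 days were compared with untreated NT2 cells at day 0. NT2 is an established human embryonal carcinoma line, a tumour-derived line that resembles early embryonic cells and can be driven into several lineages in culture. The comparison held 4 of the 14 RNA sequencing libraries of the series: 2 of untreated cells at day 0 and 2 of cells treated with BMP2 for 10 days, taken by their titles. The labels name no engineered allele, and 1 growth protocol with serum-containing medium is given for all samples. The day 10 cultures had received BMP2 at 30 or 40 ng/ml with fresh medium every 2 days, and which dose belongs to which library is not given. Libraries of BMP2 day 5 and BMP2 day 21, 2 each, are cited beside single results. The rest of the series came from cells treated with retinoic acid for 5, 10 or 21 days. All 14 libraries entered the main fits, so the estimated spread also draws on that other treatment. The study asked how nucleotide excision repair (NER), which removes bulky lesions such as those made by ultraviolet light, changes as the cells differentiate. Untreated cells were represented by day 0, and day 10 cultures without BMP2 were not analysed here, so BMP2 and time in culture cannot be told apart.

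BMP2 is a secreted ligand of the transforming growth factor-beta (TGF-beta) superfamily. It binds type I and type II serine/threonine kinase receptors, which phosphorylate SMAD1, SMAD5 and SMAD8, and these enter the nucleus with SMAD4 to switch on targets such as the ID, MSX and DLX genes. In pluripotent cells the pathway ends self-renewal and favours mesoderm, heart and vascular muscle, and also amnion- and trophoblast-like fates. The 2 genes used as markers here were ACTA2, the alpha-actin of smooth muscle, and CDKN1A, the cyclin-dependent kinase inhibitor p21, a target of the tumour suppressor p53.

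The 4 libraries held between 48707236 and 75754396 counts, and between 19507 and 19863 genes had a count. Levels are given as CPM, the count of a gene relative to the library's total after scaling with trimmed mean of M values (TMM) factors, and no library pair was identical. The 2 day 10 libraries stood apart from each other. Across genes, on the log2 CPM scale, replicate 1 correlated at 0.981 with replicate 2 of BMP2 day 5 and at 0.918 with the other day 10 library, whereas replicate 2 correlated at 0.966 with replicate 2 of BMP2 day 21. With replicate 1 of BMP2 day 5 the correlation was 0.969 for replicate 1 of day 10 and 0.943 for replicate 2. These correlations run over genes, which are not independent replicates. Because the day 10 libraries differed, each gene was tested with both day 10 libraries together and with each one alone, and the difference between the libraries was tested as well. That last test compares 2 libraries and not conditions, and a lone library was assumed to vary like the other groups. Nothing in the labels says that replicates came from separate cultures. P-values therefore measure the spread between libraries of a group, estimated over the groups of the whole series, which may be technical. An exact permutation test of 2 against 2 libraries cannot go below p = 0.333, and calls therefore rest on edgeR's quasi-likelihood F test over 19142 genes at an adjusted p of 0.05.

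With both day 10 libraries together, 3799 genes were called higher (19.8% of those tested) and 3148 lower (16.4%) than at day 0. Limma on log2(RPKM + 1) of 11641 genes gave the opposite balance of 2033 higher and 2707 lower. The 2 counts differ in the measure, the test and the genes tested, and their parts were not told apart. Replicate 1 alone had 3157 genes called higher (16.5%) and 2760 lower (14.4%), together 30.9%, and replicate 2 alone had 4262 higher (22.3%) and 3675 lower (19.2%), together 41.5%. Both day 10 libraries lay above both day 0 libraries in 31.3% of the tested genes and below both in 32.2%. Both single-library tests called 2258 genes higher and 1931 genes lower. They called 101 genes in opposite directions, 41 of them higher in replicate 1 and 60 higher in replicate 2. The direct test called 1106 genes higher (5.78%) and 947 lower (4.95%) in replicate 2 than in replicate 1, together 10.7%.

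Genes were also sorted by size. A library was taken to have moved where its log2(CPM + 0.5) was at least 2-fold from the day 0 mean and beyond both day 0 libraries, and to have stayed where it was within 1.5-fold of that mean. Of 15232 genes with at least 1 CPM in any of the 4 libraries, 1809 (11.9%) were higher in both day 10 libraries and 1480 (9.72%) were lower in both. In 446 genes (2.93%) replicate 1 alone was higher and in 297 (1.95%) it alone was lower, with a called difference between the libraries in 115 and 91 of these. Replicate 2 alone was higher in 892 genes (5.86%) and lower in 567 (3.72%), with a called difference in 397 and 203. A further 91 genes were higher in replicate 1 and lower in replicate 2, and 72 went the other way. Both libraries stayed within 1.5-fold in 4082 genes (26.8%), and 5496 (36.1%) fell between these limits.

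**Figure D1:**
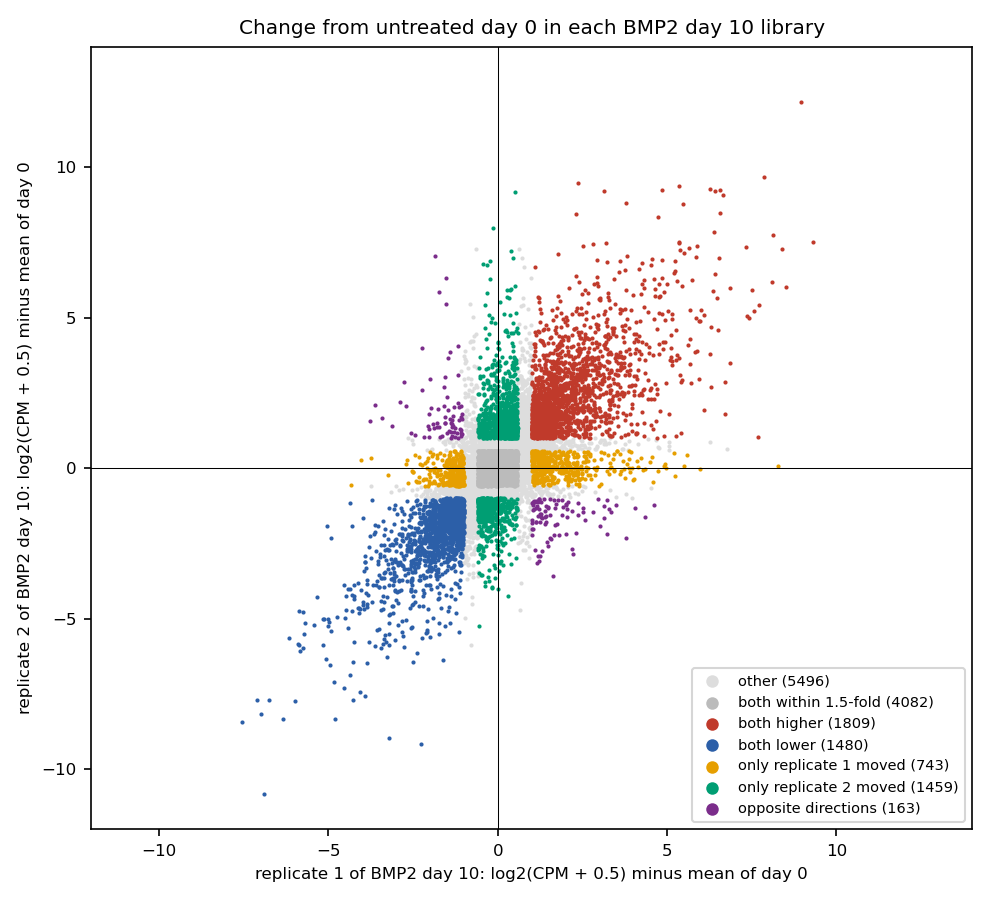
Each point is 1 of 15232 genes, with its change from the mean of untreated day 0 in replicate 1 of BMP2 day 10 on the x axis and in replicate 2 on the y axis, both as differences of log2(CPM + 0.5). The 1809 genes higher in both libraries and the 1480 lower in both lie along the diagonal, and the 743 genes that moved in replicate 1 alone and the 1459 that moved in replicate 2 alone lie along the axes.

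The 2 marker genes fell into different classes. ACTA2 was at 0.7504 and 1.002 CPM in the day 0 libraries, 115 CPM in replicate 1 and 319 CPM in replicate 2. Both day 10 libraries lay above both day 0 libraries, with a log2 fold change of 7.94 ± 0.95 (SE, adjusted p = 0.00043), and each library alone was called higher (7.02 ± 0.85 and 8.49 ± 0.89). The difference between the libraries was 1.47 ± 0.88 on the log2 scale and was not called (adjusted p = 0.31). ACTA2 shares 72.6% of its span with STAMBPL1, so some of its counts may belong to that gene. CDKN1A was at 7.46 and 10.1 CPM at day 0, 11.1 CPM in replicate 1 and 466 CPM in replicate 2. Its log2 fold change over both libraries was 4.76 ± 1.24 (adjusted p = 0.014), a call that was lost without replicate 2 of day 10 and with either day 0 library left out. Of the single libraries only replicate 2 was called (5.72 ± 0.48, adjusted p = 4.6e-05). Replicate 1 was within the error of day 0 (0.33 ± 0.46, adjusted p = 0.62), and the libraries differed by 5.39 ± 0.63 (adjusted p = 0.0022).

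Most smooth muscle genes were higher in both day 10 libraries. Of 16 contractile genes tested, 13 were called higher over both libraries and none lower, beside 19.8% of all genes called higher, and the median log2 fold change was 2.15 in replicate 1 and 3.11 in replicate 2 (median of all genes -0.01 in each). TPM1, a tropomyosin that lies along actin filaments, went from 358 and 722 CPM to 4110 and 4367 CPM (2.97 ± 0.41, adjusted p = 0.00074). MYL9, the regulatory light chain of smooth muscle myosin, went from 11.2 and 17.2 to 245 and 280.1 CPM (4.21 ± 0.64, adjusted p = 0.0011). LMOD1, a leiomodin that nucleates actin filaments in smooth muscle, went from 0.122 and 0.0278 to 15.4 and 29.5 CPM (8.32 ± 1.01, adjusted p = 0.00046). In all 3 genes every day 10 library lay above every day 0 library, and the difference between the day 10 libraries was not called. Among 14 regulators of this program 10 were called higher and none lower over both libraries. Single-library tests called 8 higher in replicate 1 and 12 in replicate 2, with medians of 1.94 and 3.87. Between the libraries, 2 regulators were called higher in replicate 2 than in replicate 1 and none lower, beside 5.78% and 4.95% of all genes. MYOCD, the coactivator that turns on smooth muscle genes through serum response factor, stood at 0.182 and 0.821 CPM at day 0 and at 57.4 and 27.8 CPM at day 10 (6.36 ± 0.80, adjusted p = 0.00054). In bulk RNA, more cells of a type and more RNA per cell cannot be told apart.

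Not every contractile gene followed. The late heavy chain gene MYH11 was at 1.46 and 0.974 CPM at day 0 and at 6.42 CPM in replicate 1, where it was called higher (adjusted p = 0.0054), against 1.52 CPM in replicate 2 (adjusted p = 0.65). ACTG2, the gamma-actin of visceral smooth muscle, was at 0.0406 and 1.503 CPM at day 0, 1.77 CPM in replicate 1 and 21.9 CPM in replicate 2, and only replicate 2 was called higher (adjusted p = 0.016). In neither gene was the difference between the libraries called (adjusted p = 0.056 and 0.19). Among the 16 contractile genes that difference was called in 1, beside 5.78% of all genes called higher in replicate 2. This was PDLIM3, at 2.61 CPM in replicate 1 and 51.8 CPM in replicate 2 (adjusted p = 0.008). Of 13 skeletal muscle genes tested, 2 were called higher and 2 lower over both libraries, near the 19.8% and 16.4% of all genes. Their summed level went from 54.7 and 45.8 CPM at day 0 to 17.3 and 12 CPM at day 10. MYH2, a fast skeletal myosin heavy chain among the 2 called lower, fell from 21.2 and 17.7 CPM to 0.3903 and 0.536 CPM (-5.39 ± 0.89, adjusted p = 0.0017).

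Serum response factor binds a 10-base element named the CArG box. It was searched on both strands of RefSeq promoter windows (GRCh38.p14, 250 bases before to 50 after a start), and 1.29% of 35116 windows held a match. ACTG2 and the cardiac actin gene ACTC1 had matches close to the start and are shown because both were far above day 0 in a day 10 library. The stretches cover the 130 bases before the start, 5′ to 3′ on the gene's strand, with the match in capitals. ACTC1 lies at chr15:34795550-34795679 on the minus strand with 1 match, and ACTG2 at chr2:73892878-73893007 on the plus strand with 2.
ACTC1: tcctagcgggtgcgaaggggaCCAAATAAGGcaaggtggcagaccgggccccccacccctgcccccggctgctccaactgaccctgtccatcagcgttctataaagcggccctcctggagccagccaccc
ACTG2: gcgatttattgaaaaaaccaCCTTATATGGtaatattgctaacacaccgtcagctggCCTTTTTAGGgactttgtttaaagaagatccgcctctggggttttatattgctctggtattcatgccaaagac
The match in ACTC1 begins 109 bases before the start, and those in ACTG2 begin 110 and 73 bases before it. Of the contractile list, 12 genes had a window and 3 of them held a match. A match is a description of the letters and not a bound site.

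ACTC1 itself was at 5.42 and 17.6 CPM at day 0 and at 300.5 and 357 CPM at day 10 (4.83 ± 1.12, adjusted p = 0.0083), a call that was lost without replicate 1 of day 0. Of 14 transcription factors of early heart and lateral mesoderm, 10 were called higher over both libraries and none lower, beside 19.8% and 16.4% of all genes. In replicate 2 alone 1 was called lower, and sorted by size 1 was lower in both libraries. HAND1, a basic helix-loop-helix factor of heart, extraembryonic mesoderm and trophoblast, was at 0.203 and 0.793 CPM at day 0 and at 609 and 176 CPM at day 10 (9.55 ± 1.62, adjusted p = 0.0019). ISL1, a LIM-homeodomain factor of cardiac progenitors, went from 0.122 and 0.195 to 221 and 101 CPM (9.93 ± 1.22, adjusted p = 0.00048). TBX3, a T-box repressor, went from 1.05 and 1.98 to 325 and 64.3 CPM (6.99 ± 1.15, adjusted p = 0.0017). These 3 genes were higher in replicate 1, and GATA4, a zinc-finger factor of heart and endoderm, was higher in replicate 2 (15.3 against 115 CPM, from 0.629 and 1.41 CPM), although none of the 4 differences between libraries was called. The sarcomere genes of striated muscle gave less: 7 of 20 were called higher, and their median log2 fold change was -0.02 in replicate 1 and 0.41 in replicate 2. TNNT2, cardiac troponin T, went from 3.77 and 10.8 CPM to 38.2 CPM in replicate 1, where it was not called (adjusted p = 0.096), and to 240.5 CPM in replicate 2 (adjusted p = 0.0039).

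Most matrix genes rose, and the summed level of the collagens was 4713 CPM in replicate 1 and 25220 CPM in replicate 2, from 727 and 623 CPM at day 0. Of 18 collagen genes 16 were called higher and none lower, beside 19.8% and 16.4% of all genes. Their median log2 fold change was 2.70 in replicate 1 and 5.80 in replicate 2, and 14 of 15 matrix proteases and crosslinkers were called higher. In replicate 1 alone the counts were 14 collagens and 12 proteases and crosslinkers. Matrix glycoproteins had 15 of 21 called higher and none lower over both libraries, and 14 higher and 1 lower in each library alone. Between the libraries, 4 glycoprotein genes were called higher and 4 lower in replicate 2 than in replicate 1, beside 5.78% and 4.95% of all genes. COL3A1, the fibrillar collagen of vessels and soft tissue, was at 2.92 and 0.334 CPM at day 0 and at 836 and 7753 CPM at day 10 (11.40 ± 2.09, adjusted p = 0.0028). COL1A1, the main chain of type I collagen, went from 6.21 and 19.98 to 514 and 5196 CPM (7.76 ± 1.32, adjusted p = 0.002). Neither difference between the day 10 libraries was called (adjusted p = 0.27 and 0.083), and 4 of the 18 collagens had a called difference, all higher in replicate 2. LUM, the small leucine-rich proteoglycan lumican, went from 0.365 and 0.278 to 189 and 676 CPM (10.40 ± 1.04, adjusted p = 0.00023). LOX, the lysyl oxidase that crosslinks collagen and elastin, was at 8.498 and 5.09 CPM at day 0, 23.9 CPM in replicate 1 (not called, adjusted p = 0.16) and 989 CPM in replicate 2 (adjusted p = 0.00055). The libraries differed in LOX by 5.37 ± 1.30 (adjusted p = 0.031), and 81.6% of its span overlaps SRFBP1.

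Ligands, inhibitors and targets of BMP signalling were mostly higher at day 10. Of 16 ligands and inhibitors 9 rose and 1 fell, beside 19.8% and 16.4% of all genes. BMP4 went from 26.8 and 21.3 to 277 and 168 CPM (3.21 ± 0.55, adjusted p = 0.0021), and the related ligand GDF6 from 0.811 and 1.17 to 74.1 and 236 CPM (7.28 ± 0.87, adjusted p = 0.00045). NOG, the secreted inhibitor noggin, went from 3.12 and 5.34 to 44.3 and 53.1 CPM, which was above both day 0 values in each library (3.52 ± 0.44, adjusted p = 0.00054). Of 12 receptors and SMADs 2 rose and 1 fell, beside 36.3% of all genes called in either direction. Of 20 target genes 12 rose and none fell. MSX1, a homeobox gene of limb, neural crest and amnion, stood at 0.284 and 0.348 CPM at day 0 and at 225 and 58.9 CPM at day 10 (8.79 ± 1.21, adjusted p = 0.00075). DLX5, a distal-less homeobox gene, rose in both libraries and reached 91.7 CPM in replicate 1 against 5.88 CPM in replicate 2 from 0.325 and 0.445 CPM at day 0, and here the libraries differed (-3.96 ± 0.80, adjusted p = 0.017). ID1, ID2, ID3 and ID4, immediate targets that block basic helix-loop-helix factors, did not pass the test. ID1 was at 92.7 and 104 CPM at day 0 and at 114 and 65.0 CPM at day 10 (-0.14 ± 0.35, adjusted p = 0.79).

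Ligands and inhibitors of the same superfamily also separated the libraries. BMP7 was at 37.3 and 33.3 CPM at day 0, 109.5 CPM in replicate 1 and 2.503 CPM in replicate 2, so that replicate 1 was called higher (1.63 ± 0.48, adjusted p = 0.029) and replicate 2 lower (-3.82 ± 0.64, adjusted p = 0.0012) than day 0. The replicate 1 call was lost with either day 0 library left out, and so was that of INHBA. INHBA, which encodes the activin A subunit, was called higher in both but at 12.8 CPM in replicate 1 and 895 CPM in replicate 2 from 1.87 and 0.473 CPM at day 0, a difference of 6.13 ± 1.57 (adjusted p = 0.037). GREM1, the BMP inhibitor gremlin, stayed in replicate 1 (12.9 CPM, day 0 6.92 and 11.2 CPM) and reached 328 CPM in replicate 2 (difference 4.67 ± 1.19, adjusted p = 0.037). Over the list of 15 TGF-beta ligands, receptors and readouts, 8 were called higher in replicate 1 and 13 in replicate 2, beside 16.5% and 22.3% of all genes. Of these 15, 7 were called higher in replicate 2 than in replicate 1, beside 5.78% of all genes.

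The HOX genes, which set position along the body axis, were low at day 0 and mostly higher at day 10, with a summed level of 20.7 and 14.9 CPM at day 0 and 176 and 131 CPM at day 10. Of 39 tested, 28 rose and 1 fell, beside 19.8% and 16.4% of all genes. The median log2 fold change, with genes at 0 counts set to a floor of 3 counts over the group, was 4.09 in replicate 1 and 3.56 in replicate 2. On the log2(RPKM + 1) scale, which shrinks the change of low genes, the median over 35 of these genes was 0.29 for both libraries together. HOXA11 had no count in either day 0 library and 9.65 and 5.59 CPM at day 10, at least 300-fold higher (adjusted p = 0.0035). HOXC8, at 0.248 CPM in replicate 1 and 2.57 CPM in replicate 2, also had no count at day 0, and it lies wholly inside the span of HOXC6. Its pooled call was lost without replicate 2 of day 0. HOXB1, the most anterior gene of its cluster, was the single one to fall, from 3.002 and 1.56 CPM to 0.177 and 0.0447 CPM (-4.27 ± 0.85, adjusted p = 0.004).

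The 12 largest increases by fitted fold change, among called genes of at least 5 CPM whose groups did not overlap, were in genes with no count at day 0, where a fold is only a lower bound. CYSLTR2, a receptor for cysteinyl leukotrienes, had 40.04 CPM in replicate 1 and 28.9 CPM in replicate 2, at least 1300-fold above day 0 (adjusted p = 0.00088). RGS1, a regulator of G protein signalling, had 9.05 and 8.63 CPM, at least 350-fold above day 0 (adjusted p = 0.0045). NNMT, nicotinamide N-methyltransferase, had 8.57 and 48.8 CPM, at least 1100-fold above day 0 (adjusted p = 0.00091). Of these 12 genes, 4 had a called difference between the libraries, and all 4 were higher in replicate 1: C1orf105 (54.1 against 0.268 CPM), ERP27 (39.1 against 2.71 CPM), WNT6 (23.7 against 0.179 CPM) and KRT16 (14.97 against 0.0447 CPM). The pooled calls of C1orf105, WNT6 and KRT16 were lost with either day 0 library left out, and the last 2 also without replicate 1 of day 10.

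Pluripotency genes fell in both libraries, and many were lower still in replicate 2. Of 22 genes, 20 were called lower and none higher, beside 16.4% and 19.8% of all genes. The direct test called 13 lower in replicate 2 than in replicate 1, beside 4.95% of all genes. POU5F1 (OCT4), the core pluripotency factor, was at 1011 and 1006 CPM at day 0, 109.7 CPM in replicate 1 and 1.52 CPM in replicate 2. Both day 10 values lay under both day 0 values (-4.18 ± 1.28, adjusted p = 0.028), and the libraries differed by -6.17 ± 0.59 (adjusted p = 0.0014). The pooled call for POU5F1 was lost when either day 0 library was left out, while each day 10 library alone was called lower (adjusted p = 0.0013 and 2.3e-05). LIN28A, an RNA-binding protein that blocks let-7 maturation, was at 2536 and 3050 CPM at day 0, 582 CPM in replicate 1 and 4.29 CPM in replicate 2. Each library alone was called lower (adjusted p = 0.011 and 4.5e-05), but the pooled comparison was not called (-3.25 ± 1.38, adjusted p = 0.091), and the libraries differed by -7.08 ± 0.72 (adjusted p = 0.0015). NANOG went from 220.0 and 279 CPM to 14.3 and 0.916 CPM, and DNMT3B, the de novo DNA methyltransferase, from 1386 and 1533 to 51.5 and 4.001 CPM. GDF3, a TGF-beta family ligand of pluripotent cells, was nearly gone from both (382 and 283 to 1.28 and 0.447 CPM, -8.57 ± 0.67, adjusted p = 0.0001). The long noncoding RNA LINC-ROR had 31.6 and 26.5 CPM at day 0 and no count at day 10, at least 970-fold lower, and the tyrosine kinase gene LCK went from 16.4 and 4.86 CPM to no count, at least 350-fold lower.

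Proliferation genes fell along with it. Of 27 cell cycle and mitosis genes 22 were called lower, with a median of -1.37 in replicate 1 and -2.56 in replicate 2. Of 17 replication genes 15 were called lower, beside 16.4% of all genes. CCNE1, the cyclin of S-phase entry, went from 50.8 and 55.4 CPM to 20.2 and 13.1 CPM (-1.67 ± 0.26, adjusted p = 0.0012). AURKB, the Aurora kinase of chromosome segregation, went from 90.8 and 82.2 to 31.4 and 10.5 CPM (-2.04 ± 0.53, adjusted p = 0.014). The call of AURKB was lost without replicate 1 of day 0. In both genes replicate 2 was the lower, without a called difference between the libraries (adjusted p = 0.21 and 0.095). Over the lists, 9 of 27 cell cycle genes and 8 of 17 replication genes were called lower in replicate 2 than in replicate 1, beside 4.95% of all genes.

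**Figure D2:**
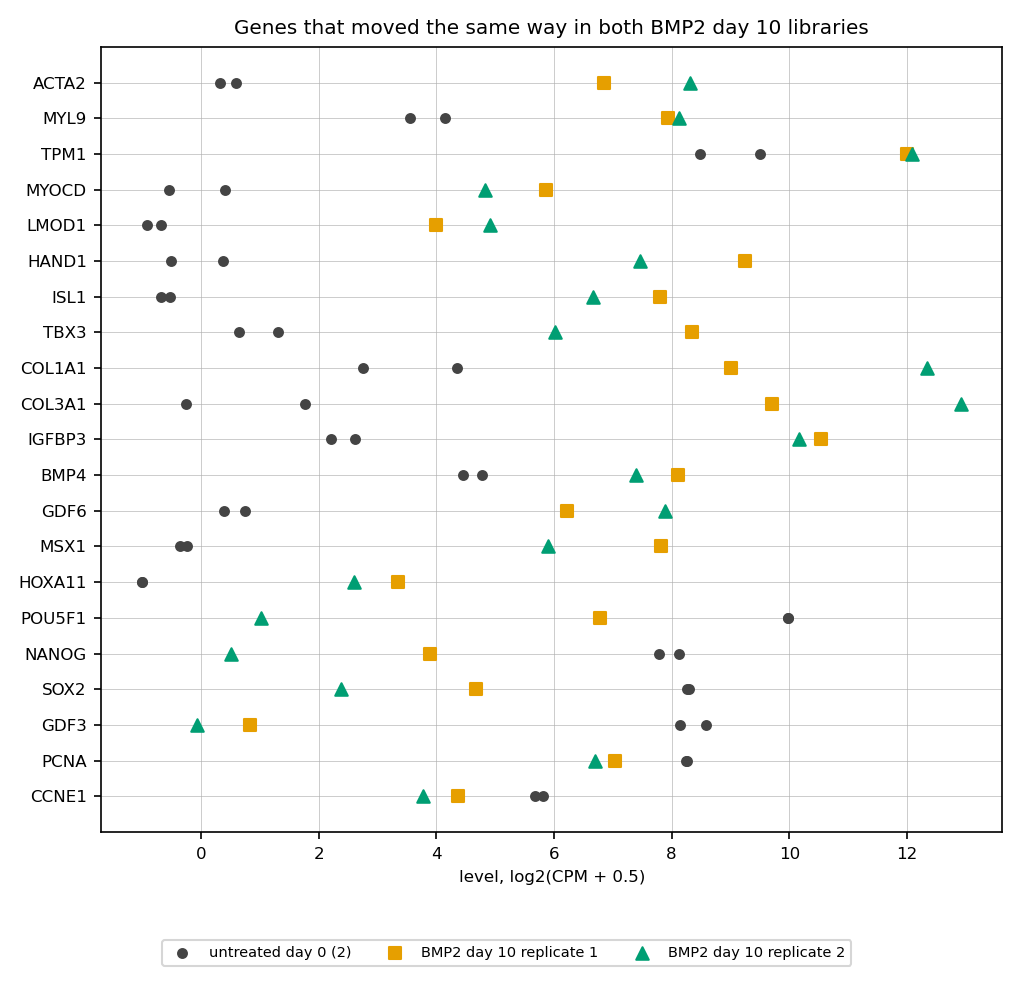
The x axis gives the level as log2(CPM + 0.5) for 21 genes in the 2 untreated day 0 libraries (circles) and in replicate 1 (squares) and replicate 2 (triangles) of BMP2 day 10. In every gene shown both day 10 libraries lie on the same side of both day 0 libraries, for example ACTA2 at 115 and 319 CPM against 0.7504 and 1.002 CPM.

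The libraries parted on the interferon response, the set of antiviral genes that type I and type III interferons switch on. Of 12 genes, 10 were called higher in replicate 2 and 10 were called higher in replicate 2 than in replicate 1, beside 22.3% and 5.78% of all genes. In replicate 1 IFI6 was called higher, and IRF9 and IFITM1 were called lower, the first at levels under 1 CPM and the second inside the span of IFITM2. The summed level of the list was 313 and 328 CPM at day 0, 233 CPM in replicate 1 and 4221 CPM in replicate 2. ISG15, a ubiquitin-like modifier, was at 1.14 and 1.06 CPM at day 0, 1.58 CPM in replicate 1 and 236 CPM in replicate 2 (difference 7.22 ± 1.24, adjusted p = 0.0093). MX1, a dynamin-like antiviral GTPase, was at 6.61 and 3.52 CPM at day 0, 0.994 CPM in replicate 1 and 712 CPM in replicate 2 (difference 9.48 ± 1.54, adjusted p = 0.008). IFI44L was at 0.284 and 0.195 CPM at day 0, 0.550 CPM in replicate 1 and 431 CPM in replicate 2 (difference 9.61 ± 2.14, adjusted p = 0.023). In all 3 genes replicate 1 was not called against day 0, and replicate 2 stood alone above the other 3 libraries.

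The same split was seen in IFIH1 and STING1, which serve in sensing viral and cytoplasmic nucleic acid. Both were picked for their large difference between the libraries, and no list of sensors was counted. IFIH1, the cytoplasmic double-stranded RNA sensor MDA5, had no count in replicate 1, 0.284 and 0.0835 CPM at day 0 and 74.3 CPM in replicate 2 (difference called, adjusted p = 0.0044). STING1, the adaptor of cytoplasmic DNA sensing, was at 0.0355 CPM in replicate 1 and 72.8 CPM in replicate 2 (day 0 0.0811 and 0.167 CPM). DDX60, a helicase of the antiviral response, was called lower than day 0 in replicate 1 (0.568 CPM, adjusted p = 0.0043) and higher in replicate 2 (78.2 CPM, adjusted p = 0.00014), from 5.07 and 3.95 CPM. IFI6, a small mitochondrial protein, was at 1.34 and 1.36 CPM at day 0, 74.4 CPM in replicate 1 and 1233 CPM in replicate 2, called higher in each, and its difference between the libraries was not called (adjusted p = 0.12). The replicate 1 call of IFI6 was lost with either day 0 library left out. At BMP2 day 5 ISG15 stood at 1.94 and 1.51 CPM and at BMP2 day 21 at 17.5 and 86.3 CPM, and MX1 at 0.761 and 0.676 CPM and 54.4 and 319 CPM, so that replicate 2 of day 10 lay above both day 21 libraries for these genes. Transcripts of the ligand genes, chosen after their values were seen, were scarce: IFNB1 had 4 counts and IFNL1 6 counts in replicate 2, and neither had a count in replicate 1 or at day 0. IFNG had no count in any of the 4 libraries.

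Many genes of this kind carry the interferon-stimulated response element in their promoters. Its core was searched as GAAANNGAAA on both strands of the RefSeq promoter windows, and 1255 of 35116 windows (3.57%) held a match. The promoters of 3 genes that separated the libraries are shown over the 130 bases before the start, 5′ to 3′ on the gene's strand, with matches in capitals. ISG15 lies at chr1:1013367-1013496 on the plus strand, DDX60 at chr4:168318753-168318882 on the minus strand and IFIT1 at chr10:89392493-89392622 on the plus strand (GRCh38.p14).
ISG15: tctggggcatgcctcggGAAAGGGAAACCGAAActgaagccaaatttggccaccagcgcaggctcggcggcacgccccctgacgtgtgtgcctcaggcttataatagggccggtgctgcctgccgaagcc
DDX60: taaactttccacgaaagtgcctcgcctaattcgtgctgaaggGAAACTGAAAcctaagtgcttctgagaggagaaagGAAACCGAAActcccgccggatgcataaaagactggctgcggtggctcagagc
IFIT1: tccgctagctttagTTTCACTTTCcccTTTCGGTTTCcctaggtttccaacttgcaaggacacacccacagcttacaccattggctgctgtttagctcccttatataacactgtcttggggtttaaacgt
ISG15 has 2 overlapping matches 113 and 107 bases before the start, DDX60 has 2 at 88 and 53 bases, and IFIT1 has 2 on the other strand at 116 and 103 bases. Of the 12 interferon genes 10 had a window and 7 of these held a match. Among windows of the genes that moved up in replicate 2 alone with a called difference, 40 of 487 (8.21%) held a match, beside 2.91% of the windows of all genes tested. The share was 1 of 119 (0.84%) for genes that moved up in replicate 1 alone and 51 of 2238 (2.28%) for genes higher in both. Since 5 genes of the interferon list moved up in replicate 2 alone, the share of that class and that of the list are not separate observations. IFIT1 lies wholly inside the annotated span of LIPA.

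Targets of p53 also separated the libraries. Of 18 genes, 15 were called higher in replicate 2 and none lower, beside 22.3% and 19.2% of all genes. In replicate 1 the counts were 5 higher and 2 lower, beside 16.5% and 14.4% of all genes. The direct test called 8 higher in replicate 2 than in replicate 1, beside 5.78% of all genes. ZMAT3, an RNA-binding p53 target, was at 23.9 and 24.7 CPM at day 0, 24.7 CPM in replicate 1 and 238 CPM in replicate 2 (difference 3.27 ± 0.34, adjusted p = 0.0016). TNFRSF10B, the death receptor DR5, fell in replicate 1 (35.9 CPM, -0.92 ± 0.22, adjusted p = 0.011) and rose in replicate 2 (261 CPM, 1.94 ± 0.20, adjusted p = 0.00011) from 64.4 and 71.9 CPM, and its replicate 1 call was lost without replicate 2 of day 0. MDM2, the ubiquitin ligase that holds p53 down, was at 124 and 143 CPM at day 0, 76.8 CPM in replicate 1 and 278 CPM in replicate 2 (difference 1.86 ± 0.35, adjusted p = 0.014). Some targets did rise in both: FAS, another death receptor, went from 1.54 and 2.06 CPM to 10.98 and 34 CPM (3.64 ± 0.59, adjusted p = 0.0016), and TP53INP1, which lies inside the span of NDUFAF6, from 8.64 and 7.82 to 68.4 and 86.8 CPM. For the 10 CDK inhibitors and D-type cyclins, replicate 1 had 4 called higher and 2 lower. Replicate 2 had 7 of them called higher and none lower. Between the libraries, 3 were called higher and 1 lower in replicate 2 than in replicate 1, beside 5.78% and 4.95% of all genes. CDKN2A, which encodes p16 and ARF, was at 0.406 and 0.946 CPM at day 0, 1.402 CPM in replicate 1 and 57.1 CPM in replicate 2 (difference 5.35 ± 1.09, adjusted p = 0.017), and CCND2, cyclin D2, fell in replicate 1 and rose in replicate 2 (339 and 2348 CPM, day 0 854 and 860.3 CPM). CDKN1C, the inhibitor p57, went the other way, with 90.05 CPM in replicate 1 and 22.6 CPM in replicate 2 from 20.1 and 15.3 CPM (difference -1.99 ± 0.45, adjusted p = 0.024).

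Muscle and regulatory genes were among the others that moved in replicate 2 alone. MYOZ2, a Z-disc protein of cardiac and slow muscle, was at 0.203 and 0.724 CPM at day 0, 0.213 CPM in replicate 1 and 39.6 CPM in replicate 2 (adjusted p = 0.014 for the difference). PDLIM3, an actinin-associated LIM protein of the smooth muscle contractile list, was at 1.89 and 2.13, 2.61 and 51.8 CPM in the same order (adjusted p = 0.008). KLF2, a flow-responsive zinc-finger factor, was at 0.243 and 0.195, 0.426 and 23.8 CPM (adjusted p = 0.0067). NAV3, a neuron navigator family gene, differed from day 0 in both libraries. It was called lower in replicate 1 (0.887 CPM) and higher in replicate 2 (264 CPM) than the day 0 libraries at 4.38 and 3.84 CPM, and the difference was 8.22 ± 0.85 (adjusted p = 0.0015). The replicate 1 call was lost with either day 0 library left out.

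Several amnion, trophoblast and surface epithelial genes were high in replicate 1 alone. VTCN1, an immune checkpoint ligand found in amnion and placenta, was at 0.243 and 0 CPM at day 0, 189 CPM in replicate 1 and 0.134 CPM in replicate 2 (adjusted p = 0.0051 for the difference). GABRP, the pi subunit of GABA type A receptors, was at 3.18 and 1.68 CPM at day 0, 577 CPM in replicate 1 and 5.25 CPM in replicate 2 (difference -6.78 ± 0.93, adjusted p = 0.0038). TP63, the master regulator of stratified epithelium, was at 0.0406 and 0.0278 CPM at day 0, 33.05 CPM in replicate 1 and 0.0223 CPM in replicate 2 (adjusted p = 0.016). CLDN4, a tight junction claudin, was at 0.446 and 0.668, 38.2 and 0.984 CPM in the same order (adjusted p = 0.0093). In each of these 4 genes replicate 2 was not called against day 0. Over the trophoblast and amnion list, 10 of 14 genes were called higher in replicate 1 and 4 in replicate 2, beside 16.5% and 22.3% of all genes. Of these 14, 5 were called lower in replicate 2 than in replicate 1, beside 4.95% of all genes. The 4 called higher in replicate 2 were GATA3, TFAP2A, IGFBP3 and ISL1. CGA, the alpha chain of chorionic gonadotropin, was at 0 CPM at day 0 and at 0.0532 and 0.402 CPM at day 10 and was not called (adjusted p = 0.089). The summed level of the list was 49.7 and 60.7 CPM at day 0 and 2775 and 1320 CPM at day 10. Without IGFBP3, left out after its level was seen, it was 45.6 and 55.1 CPM at day 0 and 1296 and 170.3 CPM at day 10. Its part in the muscle and matrix results was not tested.

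Several epithelial genes were higher in one library and lower in the other. Of 17 tested, 7 were called higher and none lower in replicate 1, beside 16.5% and 14.4% of all genes. In replicate 2, 5 were called higher and 9 lower, beside 22.3% and 19.2%. The direct test called 9 lower in replicate 2 than in replicate 1, beside 4.95% of all genes. CDH1, the E-cadherin of epithelial junctions, rose in replicate 1 (392 CPM, 3.23 ± 0.60, adjusted p = 0.0037) and fell in replicate 2 (8.72 CPM, -2.26 ± 0.70, adjusted p = 0.026) from 43.7 and 39.97 CPM. GRHL2, a grainyhead factor that maintains epithelium, was likewise called higher in replicate 1 (55.5 CPM) and lower in replicate 2 (0.313 CPM) than day 0 (2.88 and 4.38 CPM). ATP12A, a proton pump subunit, was called higher in replicate 1 (30.5 CPM) and lower in replicate 2 (0.0447 CPM), from 0.7098 and 0.835 CPM at day 0. The replicate 2 calls of CDH1 and ATP12A were lost with either day 0 library left out and that of GRHL2 without replicate 2 of day 0, whereas all 3 replicate 1 calls were kept. Others were lower in replicate 2 only. EPCAM, an epithelial adhesion molecule, stayed at 194 CPM in replicate 1 and fell to 19.9 CPM in replicate 2 from 211 and 197 CPM (difference -3.29 ± 0.36, adjusted p = 0.0018). CLDN6, a claudin of pluripotent cells, was at 440.2 and 478 CPM at day 0, 409 CPM in replicate 1 and 28.4 CPM in replicate 2 (difference -3.85 ± 0.54, adjusted p = 0.0043), and the transcription factor gene TFAP2C at 33.3 and 40.3, 47.9 and 3.55 CPM (difference -3.75 ± 0.67, adjusted p = 0.011). KRT8, a keratin of simple epithelium, went from 987 and 1215 to 4317 and 5501 CPM, higher over both libraries (2.16 ± 0.42, adjusted p = 0.0036). Among mesenchymal factors SNAI2 and TWIST1, repressors of epithelial genes, rose in both (SNAI2 from 2.15 and 2.23 to 92.02 and 57.6 CPM, TWIST1 from 3.18 and 4.11 to 52.2 and 23.4 CPM). The pooled and the replicate 2 call of TWIST1 were lost with either day 0 library left out. SNAI1 fell in replicate 2 alone (7.83 and 7.43 CPM at day 0, 8.27 and 0.447 CPM).

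The class of genes lower in replicate 1 alone, with replicate 2 within 1.5-fold of the day 0 mean, was the smallest of the 4 single-library classes, with 297 genes. TRIM14, an adaptor of antiviral signalling, was at 50.9 and 56.3 CPM at day 0, 3.55 CPM in replicate 1 and 68.4 CPM in replicate 2 (difference 4.27 ± 0.57, adjusted p = 0.0036). ANO5, an anoctamin membrane protein of muscle, was at 23.9 and 18.2, 1.77 and 17.7 CPM in the same order (difference 3.32 ± 0.46, adjusted p = 0.004).

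**Figure D3:**
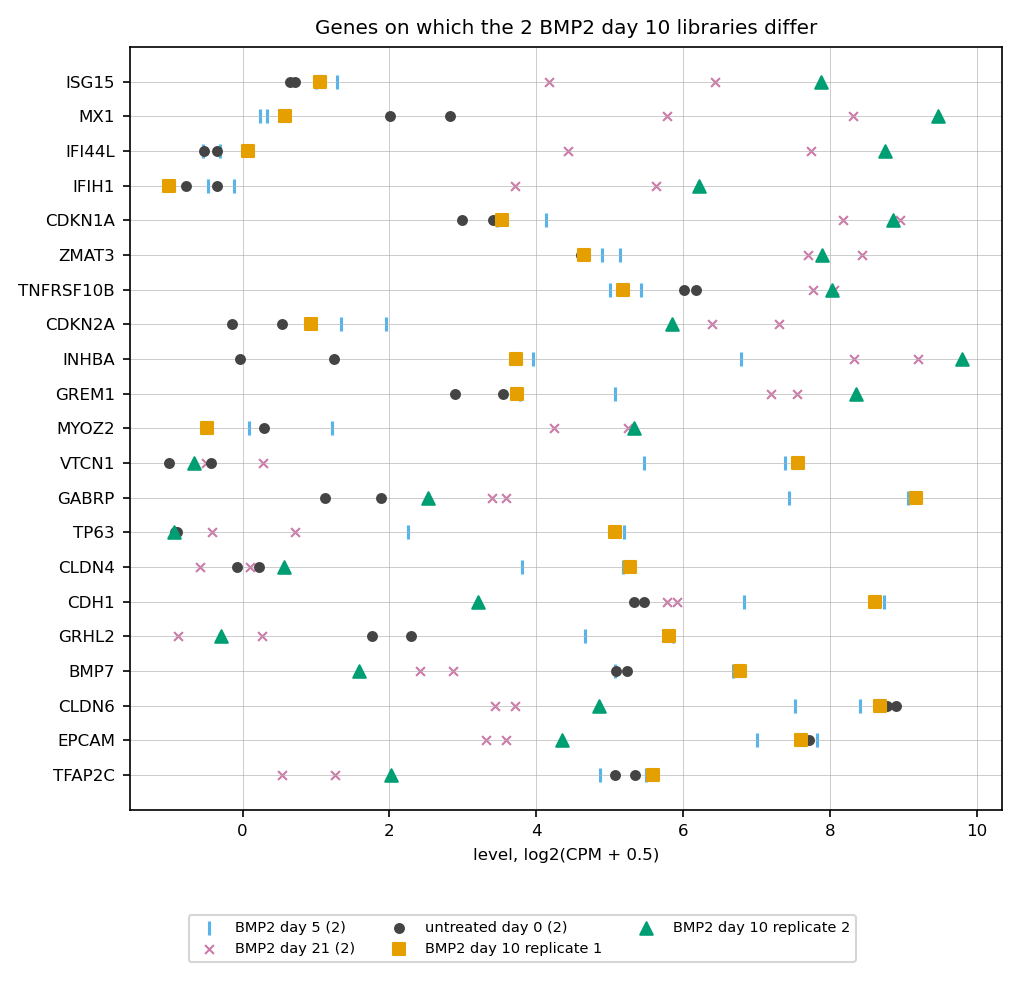
The x axis gives the level as log2(CPM + 0.5) for 21 genes in the 2 untreated day 0 libraries (circles), in replicate 1 (squares) and replicate 2 (triangles) of BMP2 day 10, and in the libraries of BMP2 day 5 (bars) and BMP2 day 21 (crosses). For CDKN1A replicate 2 lies with the day 21 libraries and replicate 1 with the day 5 libraries, at 16.99 and 10.6 CPM on day 5, 11.1 and 466 CPM on day 10 and 289 and 496 CPM on day 21.

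The genes that separated the day 10 libraries followed the order of the other BMP2 libraries. Of the 1106 genes called higher in replicate 2 than in replicate 1, 98.4% had a higher mean level at BMP2 day 21 than at BMP2 day 5, and of the 947 called lower, 96.2% had a lower one, against 49.1% and 50.2% of all genes tested. Replicate 2 of BMP2 day 5 was close to replicate 1 of day 10 in the genes of surface epithelium, with CDH1 at 425 against 392 CPM, GABRP at 537 against 577 CPM and TP63 at 36.3 against 33.05 CPM. The day 5 libraries themselves differed, with TP63 at 4.28 CPM in replicate 1 of day 5, and VTCN1 at 43.6 CPM there against 167 CPM in its replicate 2. These are descriptions of single libraries, and the labelled days were kept throughout.

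**Figure D4:**
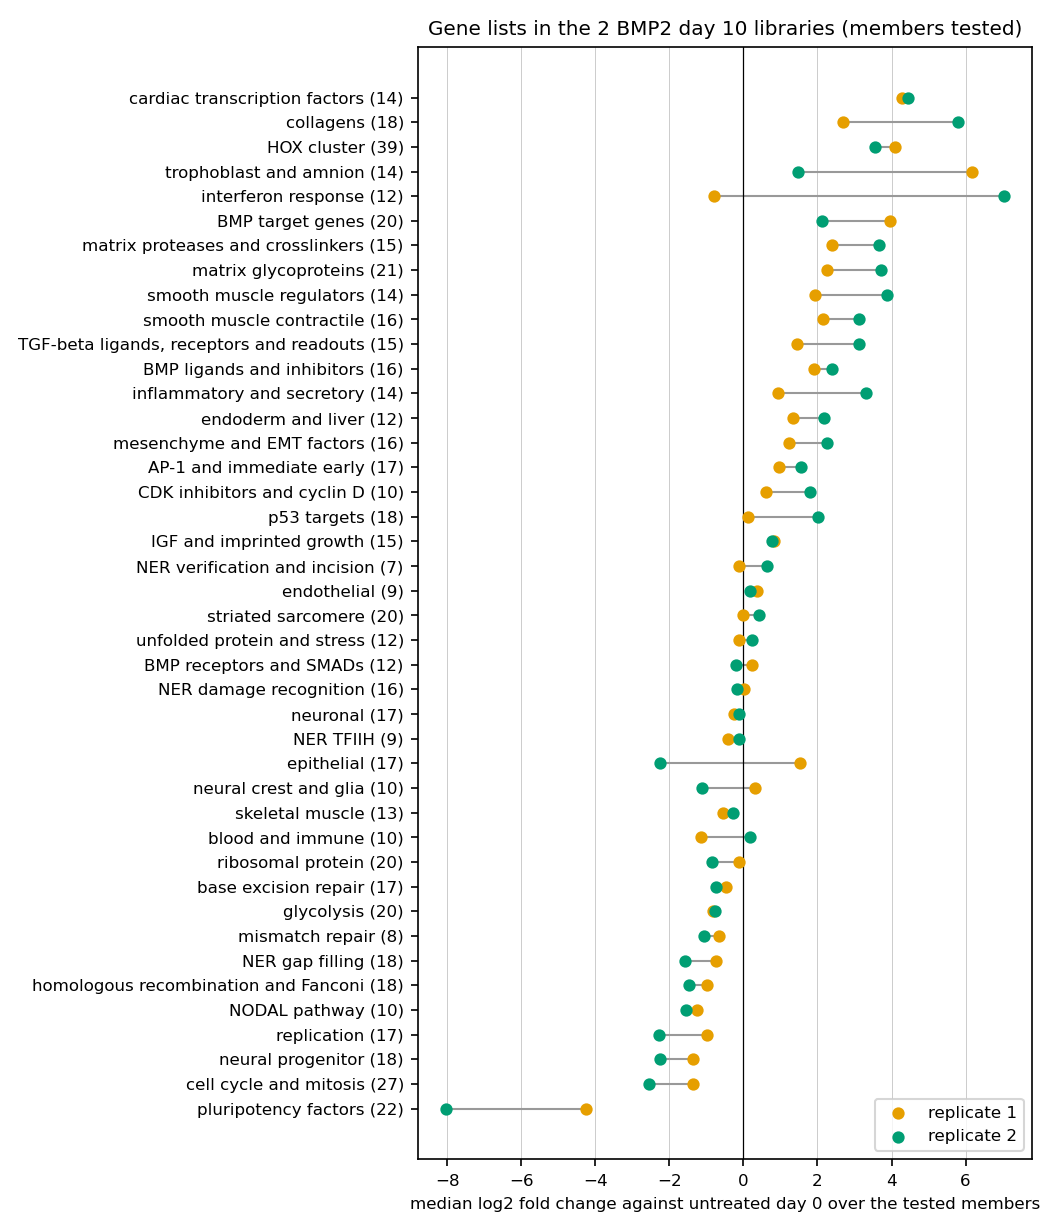
Each row is a gene list with its number of tested members, and the x axis gives the median log2 fold change against untreated day 0 in replicate 1 (orange) and replicate 2 (green), with genes at 0 counts in a group set to the floor of 3 counts. The interferon list lies at -0.80 and 7.04, the epithelial list at 1.52 and -2.26 and the pluripotency list at -4.26 and -8.02.

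NER genes were grouped by step of the pathway, and most calls over both day 10 libraries together were in the last one. In global genome repair XPC and the DDB1-DDB2 complex find the lesion, TFIIH opens the DNA, XPA and RPA verify it, ERCC1-ERCC4 and ERCC5 cut on either side, and replication factors fill and seal the gap. Of 16 recognition genes 1 was called higher and 1 lower over both day 10 libraries. Taken alone, 3 were called higher and 3 lower in replicate 1 (16.5% and 14.4% of all genes). In replicate 2 the counts were 5 higher and 3 lower (22.3% and 19.2% of all genes). The direct test called 3 higher and 2 lower in replicate 2 than in replicate 1, beside 5.78% and 4.95% of all genes. XPC went from 54.6 and 58.99 CPM to 101 and 99.6 CPM (0.82 ± 0.15, adjusted p = 0.0025), almost the same in each library. DDB2, itself a p53 target, was at 16.5 and 15.9 CPM at day 0 and was called lower in replicate 1 (6.67 CPM, -1.28 ± 0.35, adjusted p = 0.02) and higher in replicate 2 (30.1 CPM, 0.89 ± 0.32, adjusted p = 0.045), with a difference of 2.17 ± 0.39 (adjusted p = 0.011). With either day 0 library left out, both single-library calls of DDB2 were lost. USP7, the deubiquitinase of this step, fell from 334 and 363 to 239 and 191 CPM (-0.70 ± 0.16, adjusted p = 0.0075), a call lost without replicate 2 of day 0. Of 9 TFIIH genes none was called higher and 1 was called lower over both libraries, beside 19.8% and 16.4% of all genes. In replicate 1 alone none was called higher and 1 lower, and in replicate 2 alone 1 higher and 1 lower. Between the libraries, 2 TFIIH genes were called higher and none lower in replicate 2 than in replicate 1.

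Among 7 genes of verification and incision 2 rose and 2 fell over both libraries, beside 19.8% and 16.4% of all genes. Taken alone, none was called higher and 2 lower in replicate 1, and 4 higher and 3 lower in replicate 2. Between the libraries, none was called higher and 2 lower in replicate 2 than in replicate 1, beside 5.78% and 4.95% of all genes. ERCC1 and ERCC4, the subunits of the 5′ nuclease, went from 19.4 and 17.1 to 27.2 and 30.7 CPM (0.67 ± 0.18, adjusted p = 0.016) and from 17.4 and 15.96 to 22.6 and 34.5 CPM (0.78 ± 0.22, adjusted p = 0.022), each called in replicate 2 (adjusted p = 0.015 and 0.0032) and not in replicate 1 alone (adjusted p = 0.059 and 0.14). Both pooled calls were lost without replicate 2 of day 10 and without replicate 2 of day 0, and that of ERCC4 also without replicate 1 of day 0. The replicate 2 call of ERCC1 was lost without replicate 2 of day 0. XPA, the scaffold of the incision complex, was at 8.84 and 11.6 CPM at day 0, 9.44 CPM in replicate 1 and 21.2 CPM in replicate 2, called higher in replicate 2 only (adjusted p = 0.02, a call lost without replicate 1 of day 0), and the difference between the libraries was not called (adjusted p = 0.07). RPA2 and RPA3, subunits of the single-strand binding protein shared with replication, fell in both libraries (RPA2 from 131 and 165 to 86.3 and 60.9 CPM, -1.01 ± 0.18, adjusted p = 0.0025), and RPA3 shares 94.9% of its span with UMAD1. Of 18 gap filling genes, some of which also serve replication, 12 were called lower and 1 higher over both libraries. In replicate 1 alone 8 were called lower and 1 higher, and in replicate 2 alone 11 lower and 2 higher. PCNA, the sliding clamp, went from 305 and 303 CPM to 131 and 103 CPM (-1.37 ± 0.16, adjusted p = 0.00042), LIG1, the replicative ligase, from 59.5 and 62.02 to 32.98 and 20.4 CPM, and POLE2, a subunit of DNA polymerase epsilon, from 22.1 and 24.5 to 8.45 and 2.59 CPM. Between the libraries, 1 gap filling gene was called higher and 4 lower in replicate 2 than in replicate 1. POLK, a translesion polymerase, was called higher in replicate 2 than in replicate 1 (27.9 against 11.3 CPM, adjusted p = 0.036), with 12.6 and 13.8 CPM at day 0. These are transcript levels, and repair activity was not measured in these files. Other repair pathways gave 6 of 8 mismatch repair genes lower, 12 of 18 homologous recombination and Fanconi genes lower, and 8 of 17 base excision repair genes lower with 1 higher. Of all genes 16.4% were called lower and 19.8% higher over both libraries.

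**Figure D5:**
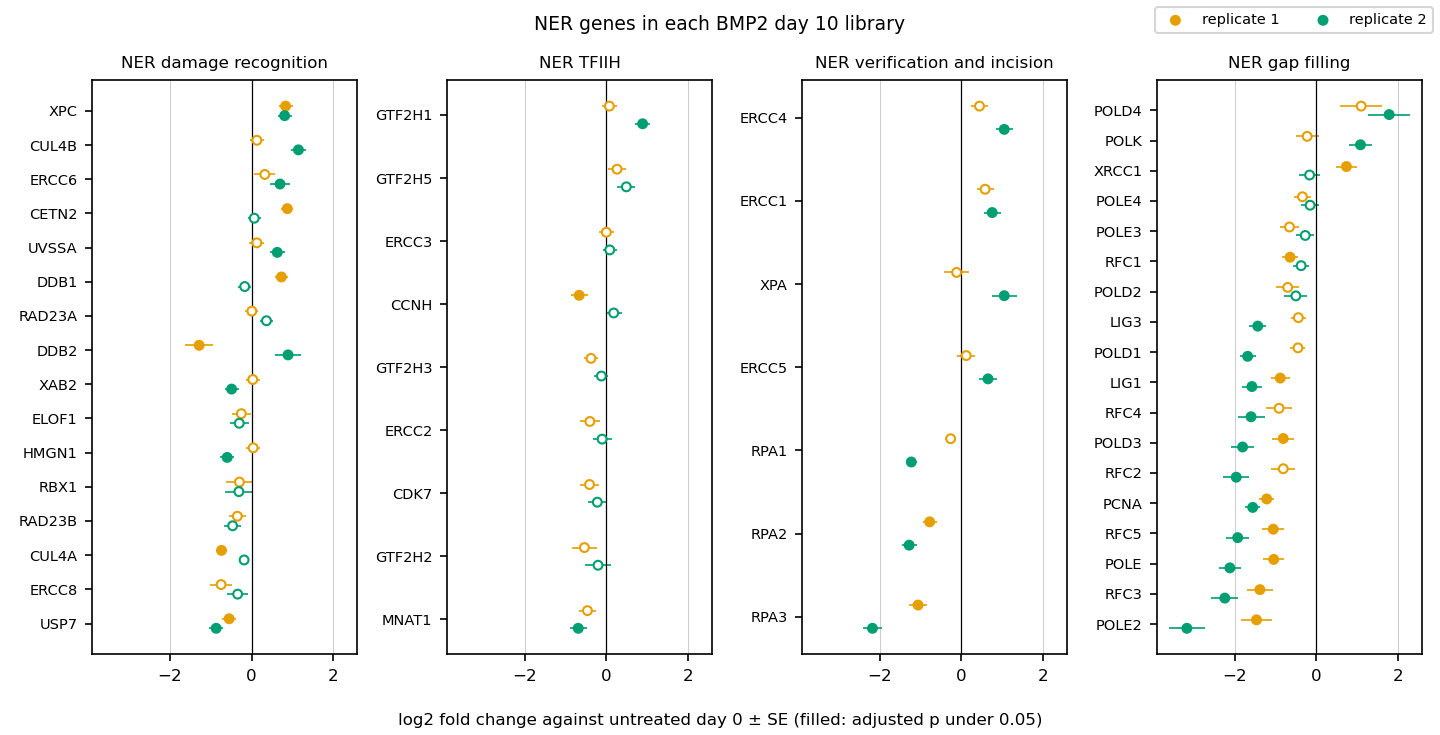
Each row is an NER gene, grouped by step, and the x axis gives its log2 fold change against untreated day 0 with its SE in replicate 1 (orange) and replicate 2 (green), filled where the adjusted p is under 0.05. DDB2 is the gene with filled points on opposite sides of 0, and most gap filling genes lie to the left in both libraries, for example PCNA at -1.21 and -1.56.

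Markers of other lineages were counted in the same way, beside 19.8% of all genes called higher and 16.4% lower over both libraries. Of 9 endothelial genes 1 was called higher in each day 10 library taken alone, VWF in replicate 1 and ERG in replicate 2, and both calls were lost with either day 0 library left out. RUNX1, a transcription factor of blood formation, was the 1 of 10 blood and immune genes called higher over both libraries, at 119 and 58.6 CPM from 6.79 and 20.3 CPM, a call lost without replicate 1 of day 10 and without replicate 1 of day 0. Endoderm and liver genes had 4 of 12 called higher, with summed levels of 8.54 and 10.7 CPM at day 0 and 27.0 and 22.6 CPM at day 10. Of 18 neural progenitor genes 6 fell and none rose over both libraries. Taken alone, 6 were called lower in replicate 1 and 7 in replicate 2, and 3 were called lower in replicate 2 than in replicate 1. The summed level of this list was 950 and 981 CPM at day 0, 905 CPM in replicate 1 and 74.0 CPM in replicate 2. Of 17 neuronal genes 4 rose and 5 fell over both libraries, with 4 and 5 in replicate 1 and 3 and 7 in replicate 2. Of 10 neural crest and glia genes 3 were called higher and none lower over both libraries. Taken alone, 4 were called higher and none lower in replicate 1 (16.5% and 14.4% of all genes), and 1 higher and 4 lower in replicate 2 (22.3% and 19.2%), with medians of 0.31 and -1.12.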

How the data were processed

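RNA was sequenced from 14 libraries. The deposited table of counts per gene was made by the authors with STAR and featureCounts on hg19, per the submitters' processing notes, which also list DESeq2; versions, strand setting and read filters are not given in the sources used here. The authors' deposited RPKM values imply gene lengths within 1% of the genomic span for 89.0% of 5814 genes checked, so intronic reads may be included. Even numbers made up 67.1 to 70.7% of counts from 1 to 19 in the 4 libraries compared, so a count may not be 1 independent fragment, and floors of 3 counts cover counting error only.

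Genes kept by filterByExpr (minimum count 10, 19142 of 25952, 99.99% of counts) were tested on the counts with edgeR 4.0.16 (R 4.3.3), with TMM factors and quasi-likelihood fits over all 14 libraries: 7 groups for both day 10 libraries together, and 8 groups with each day 10 library on its own. P-values were Benjamini-Hochberg adjusted over all genes at 0.05. SE is the size of the log2 fold change divided by the root of F. Residual degrees of freedom were 7 and 6 in the fits with 7 and 8 groups. Alternatives used limma 3.58.1 on log2 RPKM, DESeq2 1.42.0, other filters and scalings, and libraries left out. Symbols were matched for 25214 gene IDs, and overlaps of spans come from GENCODE on GRCh38. Scripts were tested on simulated data.

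The members, gene lists and tests were chosen with earlier results of these data known, so list counts are descriptions. Genes named are the 2 markers, the 12 largest called changes per direction with at least 5 CPM and no overlap between groups, the 8 with the largest difference per single-library class, up to 5 members per list with the largest change, up to 8 genes moving in opposite directions, and NER genes called in any contrast. Not every gene the rule names is reported here. Genes named outside that rule were chosen after their values were seen and are ACTC1, BMP4, CCND2, CCNE1, CDH1, CGA, DNMT3B, EPCAM, FOS, GABRP, GATA3, HOXB1, ID1, ID2, ID3, ID4, IRF9, KRT8, LIN28A, MDM2, MYH11, MYH2, NANOG, NOG, POU5F1, TFAP2A, TNFRSF10B, TNNT2, TPM1 and TWIST1.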

Additional observations from a re-analysis of the deposited data

How the results depend on the processing

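The pooled comparison, with 3799 genes called higher and 3148 lower, gave 1368 and 655 when a change of at least 2-fold was tested for, and 622 and 397 when only the 4 libraries compared entered the fit. Limma on the RPKM values gave 2033 higher and 2707 lower with 1 added, and 2351 and 2618 with 0.1 added. With 1 library left out at a time the counts ran from 1994 to 4223 higher and from 1754 to 3633 lower. The lowest came without replicate 2 of day 0, the highest without replicate 1 of day 10, and the counts without replicate 1 of day 0 were 2153 and 2062. Tested for at least 2-fold, replicate 1 alone gave 1146 higher and 535 lower, replicate 2 alone 2036 and 1284, and the difference between them 214 and 195. With 1 day 0 library left out, replicate 1 alone ranged from 2003 to 2212 higher and from 1696 to 1959 lower. DESeq2 called 1932 genes higher and 1840 lower in replicate 2 than in replicate 1. Genes moving in opposite directions numbered 153 and 132 with a pseudocount of 0.1 and 32 and 43 with one of 2, for those higher and those lower in replicate 1. A least move of 4-fold left 606 genes higher in both, 378 lower in both, 147 and 32 higher or lower in replicate 1 alone, 233 and 88 in replicate 2 alone, and 6 in each opposite class. A floor of 5 CPM left 253 genes higher in replicate 1 alone. The other 131 of 164 recomputed counts stayed within 1.5 times the reported one.

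Of 83 named genes called in the pooled comparison, DESeq2 called all 83. With only the 4 libraries compared, 30 stayed called, 49 lost the call and 4 were not tested. The test for at least 2-fold lost 24, and limma on RPKM lost 29 with 1 added and 20 with 0.1 added, with 5 not tested in each. Of the 83, 30 lost the call without replicate 1 of day 0 and 31 without replicate 2 of day 0. Without replicate 2 of day 10, 13 lost it (CDKN1A, CDKN2A, ERCC1, ERCC4, GREM1, IFI44L, IFIT1, ISG15, KLF2, LOX, PDLIM3, TNNT2 and ZMAT3) and 5 turned to a negative log2 fold change, and TP63 did so without replicate 1. With 1 library left out at a time, the log2 fold change ranged from -6.38 to 8.76 for IFIH1, -2.34 to 7.14 for MX1, -1.15 to 6.6 for MYOZ2, -2.21 to 6.01 for NAV3, -1.8 to 9.11 for STING1 and -0.53 to 9.87 for TP63. The cause of these shifts was not tested beyond the library left out. Same-numbered libraries of day 10 and day 0 deviated together at a correlation of 0.06, and the 21 pairs of groups ranged from -0.342 to 0.146, so the numbers were not taken to pair samples. The fit with the replicate number as a block called 3504 genes higher and 3017 lower, and MX1, MYOZ2 and NAV3 lost the call. Depth limits genes near the floor: a fold against a group at 0 counts is a lower bound. With 2 libraries a group, a library that stands apart cannot be told from the spread of its condition.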

Other observations

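Glycolysis genes were lower in both day 10 libraries. Of 20 tested, 11 were called lower and 1 higher over both libraries, beside 16.4% and 19.8% of all genes, with a median log2 fold change of -0.81 in replicate 1 and -0.77 in replicate 2. HK2, the hexokinase that commits glucose to the pathway, was at 212 and 197 CPM at day 0, 28.4 CPM in replicate 1 and 75.9 CPM in replicate 2 (-1.97 ± 0.46, adjusted p = 0.0083). Of 20 ribosomal protein genes 15 were called lower than day 0 in replicate 2 and 1 in replicate 1, beside 19.2% and 14.4% of all genes. The medians were -0.85 and -0.12, although none of the 20 was called lower in replicate 2 than in replicate 1 by the direct test. The member called higher in replicate 2, RPS27L, is a p53-responsive paralogue and went from 40.7 and 38.9 CPM at day 0 to 31.2 CPM in replicate 1 and 131 CPM in replicate 2.

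Of 15 insulin-like growth factor and imprinted growth genes, 7 were called higher and 2 lower over both libraries, beside 19.8% and 16.4% of all genes. Their median log2 fold change was 0.84 in replicate 1 and 0.76 in replicate 2. H19, a long noncoding RNA of fetal tissue, was at 6.65 and 8.06 CPM at day 0, 784 CPM in replicate 1 and 4231 CPM in replicate 2 (8.41 ± 0.84, adjusted p = 0.00023), and MEST went from 30.5 and 22.1 to 249 and 705 CPM (4.18 ± 0.47, adjusted p = 0.00033). Both were called higher in replicate 2 than in replicate 1 (adjusted p = 0.016 and 0.029). IGFBP3, which binds insulin-like growth factors, was at 4.097 and 5.62 CPM at day 0 and at 1479 and 1150 CPM at day 10. Of 17 immediate early genes 8 rose and none fell, among them JUNB, which lies inside the span of another gene, from 1.05 and 1.66 to 12.6 and 16.9 CPM, whereas FOS was at 12.5 and 16.8 CPM at day 0 and 8.76 and 3.71 CPM at day 10 and was not called (adjusted p = 0.18).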
